A study of Mus musculus with 168 samples.

Results

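The 5 genes described here encode the neuronal intermediate filament proteins: the neurofilament light, medium and heavy subunits (Nefl, Nefm and Nefh), alpha-internexin (Ina) and peripherin (Prph). They are 5 of the 39410 rows of the expression table. The set was selected on earlier results of these data, among them a lower Nefm in ocular motor neurons of diseased mice at day 10, and values of that comparison are given below as a description with no test.

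Neurofilaments are polymers that fill the axon and set its calibre. Nefl assembles with its partners, while Nefm and Nefh carry the long phosphorylated tails that project between filaments. Ina joins the filaments of central neurons and is made early in neuronal development, and Prph marks neurons that send axons out to the periphery, such as motor neurons. In motor neuron disease the loss of neurofilament from axons into blood and cerebrospinal fluid is used as a clinical marker, which is one reason to follow the transcripts of the subunits.

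The neurons came from delta7 mice, a model of spinal muscular atrophy (SMA). SMA mice were Smn-/-/SMN2+/+/SMN∆7+/+, and their littermate controls were Smn+/+/SMN2+/+/SMN∆7+/+, so the controls carried both human transgenes too. Mice were taken at postnatal days 2, 5 and 10, named pre-, early and late symptomatic by the study. Laser capture gave about 150 neurons a tube from 6 populations: ocular (oculomotor and trochlear), facial, vagus, hypoglossal and lumbar motor neurons, and the red nucleus, a midbrain population that is not motor. There were 19 SMA and 15 control mice, with 3 to 7 mice in each of the 36 groups. The mouse was the replicate.

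Levels are RPKM, reads per kilobase of gene, scaled to the library size, so that genes of different length can be set side by side. The 168 libraries held 0.341 to 16.3 M reads as recovered from the table, with a median of 5.91 M. Mouse 252, a control taken at day 10, gave the shallowest library, from its red nucleus. Smn1, the targeted gene, was at 0 in 70 of the 88 SMA samples and reached at most 4.24 RPKM in the others, against 4.32 to 63.3 RPKM in the 72 control samples. Chat, the acetylcholine-making enzyme of motor neurons, was at 0 in 16 of the 23 red nucleus samples and at 0.83 RPKM or more in every motor population. Of the motor neuron markers, 5 of the 6 listed genes were measured; their summed level was 0.366 to 7.03 RPKM in red nucleus samples, and its lowest value in any motor sample was 47.8. The red nucleus markers Pou4f1 and Slc17a6 together gave 244.96 to 726 RPKM in red nucleus samples and at most 176.9 elsewhere, in an ocular SMA sample. Tubes hold pooled cells, so less RNA in each cell and fewer cells that express a gene cannot be told apart.

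The genes lie on 4 chromosomes of GRCm38, placed with the GENCODE M21 annotation. Nefl is at chr14:68083863-68089095 on the plus strand and Nefm at chr14:68082590-68124846 on the minus strand. The annotated Nefm model runs through Nefl, and 1108 exon bases are shared on opposite strands. Whether the counting used strand is not stated, so the split of reads between Nefl and Nefm is uncertain. Nefh is at chr11:4938754-4948064 (minus), Ina at chr19:47014698-47025327 (plus) and Prph at chr15:99055174-99058978 (plus).

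The RefSeq promoter table (GRCm38.p6) held 2 of the 5 genes, Prph and Ina. They are shown because, of the 6 populations at day 10, the red nucleus had the lowest Prph and the highest Ina. The 150 bases before each start site are printed 5′ to 3′, with any TATAAA in capitals, for Prph at chr15:99055024-99055173 (plus strand) and Ina at chr19:47014531-47014680 (plus strand).
Prph: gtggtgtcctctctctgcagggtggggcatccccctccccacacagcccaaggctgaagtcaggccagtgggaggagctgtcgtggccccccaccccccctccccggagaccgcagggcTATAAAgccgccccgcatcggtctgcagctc
Ina: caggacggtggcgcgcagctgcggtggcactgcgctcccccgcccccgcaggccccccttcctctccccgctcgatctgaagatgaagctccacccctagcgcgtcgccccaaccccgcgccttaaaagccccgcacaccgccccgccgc
The Prph window holds 1 TATAAA, which begins 31 bases before the start, and the Ina window has 0; 7.57% of the 32851 promoter windows of this length hold the motif on either strand. CCGCCC, searched on both strands, occurs once in Prph and 2 times in Ina, and in 28.6% of all windows. GC content was 69.3% for Prph and 74% for Ina, against a median of 54.0% over all windows. These are matches of letters, and no binding was measured.

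Nefl and Nefm were among the most abundant transcripts of these neurons. By mean RPKM in control mice, Nefm ranked 6 and Nefl 8 of all rows in lumbar motor neurons, and Nefl ranked 8 in ocular and 9 in facial motor neurons. In the vagus, a nucleus of visceral motor neurons, Nefl ranked 42, Nefm 148 and Nefh 2821. Prph ranked 66 in facial, 71 in lumbar and 79 in hypoglossal neurons, and 2162 in the red nucleus. Together the 5 genes made up 2.37% ± 0.157 (SD, n = 4) of all RPKM in lumbar control neurons at day 10 and 0.543% ± 0.081 (SD, n = 4) in the vagus.

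**Figure D1:**
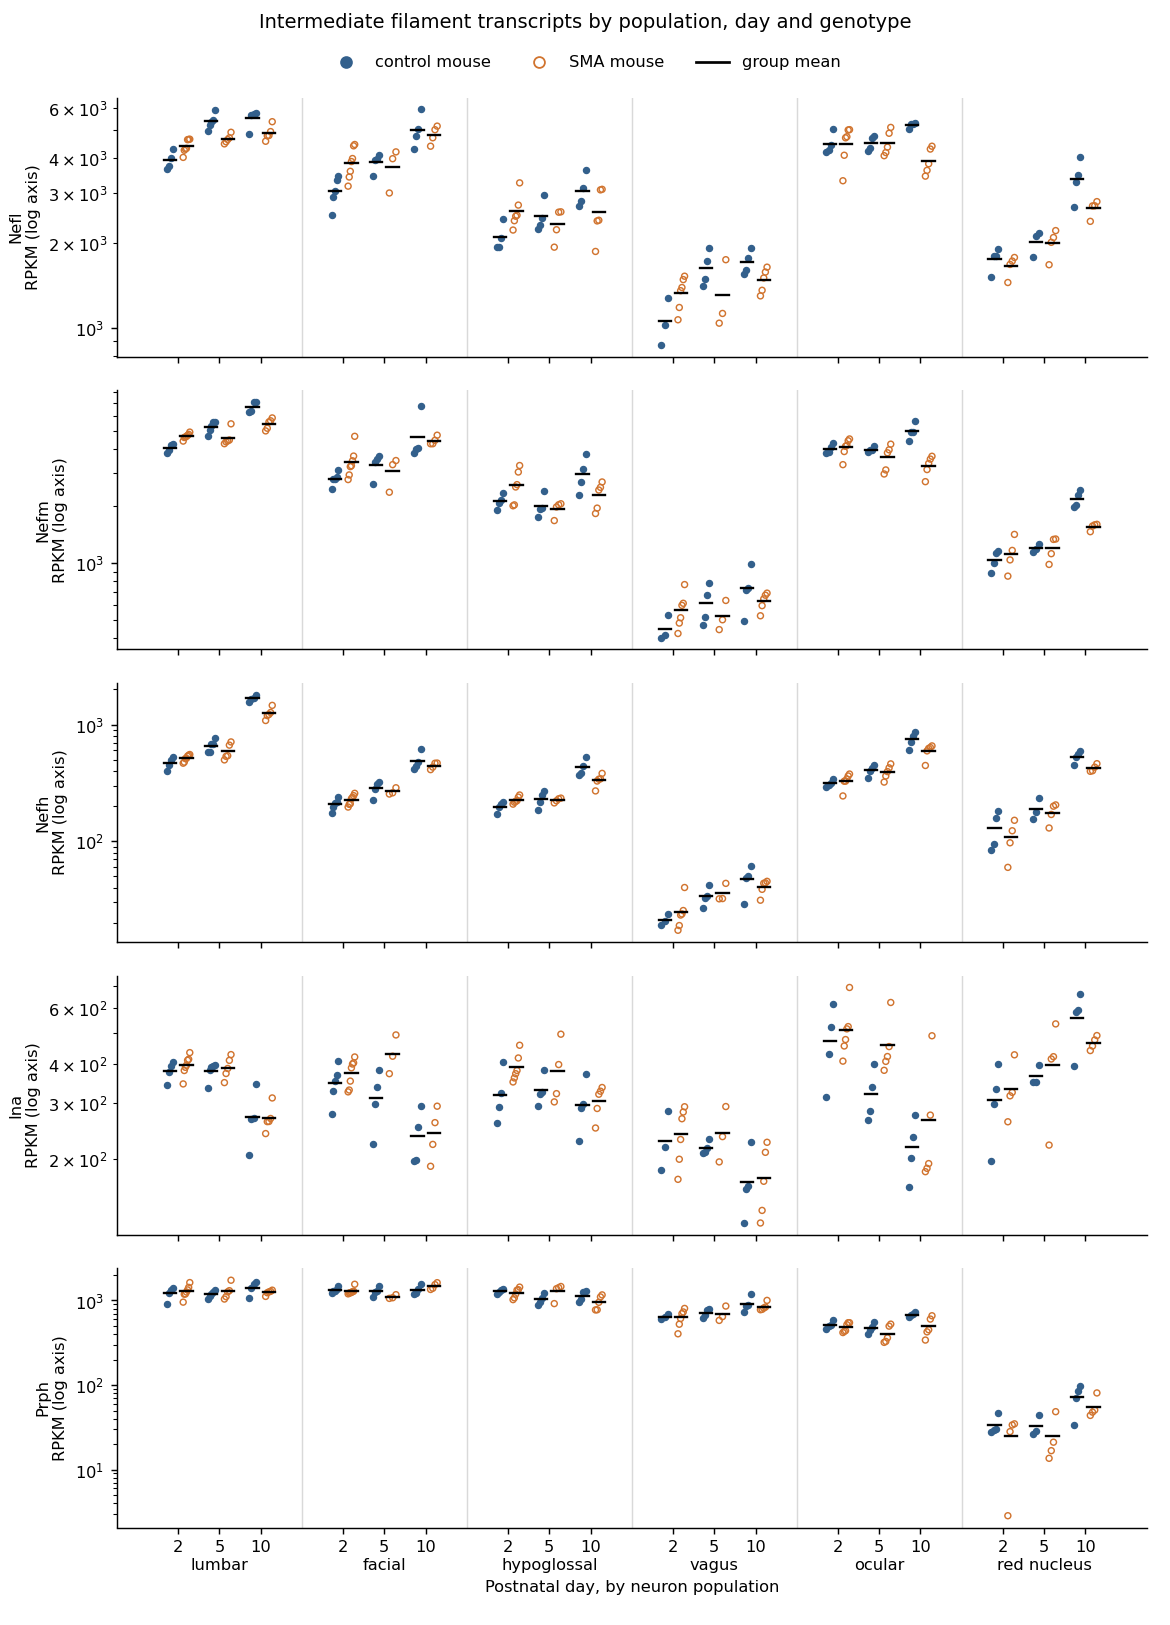
Level of each gene (RPKM, log axis) in every mouse, by population and postnatal day; filled circles are control mice, open circles SMA mice and bars group means. Nefh in the vagus lies far below the other populations, Prph in the red nucleus likewise, and control Nefh at day 10 is highest in lumbar neurons (1560 to 1800).

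Lumbar motor neurons had the highest mean levels of the triplet at each day, except Nefl at day 2, which was highest in ocular neurons, and vagus motor neurons had the lowest. Each population of control mice was compared with the mean of the other 5, averaged over the 3 days, with limma on log2(RPKM + 1); adjusted p-values below are Benjamini-Hochberg over all genes tested, with a threshold of 0.05. Of 30 such member results 22 passed. Ocular control values of day 10 enter all of them and belong to the comparison that helped choose the genes. The results are therefore not independent of that choice, those of ocular neurons least of all. The share of all genes that passed was 18.4% for lumbar, 17.7% for ocular, 9.27% for facial, 10.8% for hypoglossal, 27.7% for vagus and 21.9% for red nucleus neurons. In lumbar neurons Nefh was higher by 2.03 (SE 0.08, adjusted p = 2.9e-31) on the log2 scale, Nefm by 1.43 and Nefl by 0.84. In ocular neurons the differences were 1.06 for Nefh, 1.09 for Nefm and 0.78 for Nefl, and in facial neurons 0.37, 0.72 and 0.44; all of these passed.

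In the vagus the triplet was lower in the order heavy, medium, light. The log2 difference from the other populations was -3.49 (SE 0.08, adjusted p = 3.9e-42) for Nefh, -2.39 for Nefm and -1.28 for Nefl. The 4 control mice at day 10 had vagal Nefh of 29.3, 48.6, 50.7 and 61.7 RPKM, while lumbar Nefh was 1560, 1657, 1678 and 1800 RPKM. The lumbar mean was 35.2-fold the vagal mean at day 10, 19.3-fold at day 5 and 22.04-fold at day 2. For Nefm the corresponding folds were 9.14, 8.56 and 9.07. Nefl spanned less: the highest population mean was 3.21-fold the vagal mean at day 10. Ina in the vagus was also lower (-0.70), whereas Prph was higher than the mean of the others (0.48), a mean that includes the red nucleus.

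Hypoglossal neurons passed for lower Nefl (-0.31) and higher Prph (1.22). Their Nefm (0.01, adjusted p = 0.94), Nefh (0.15, adjusted p = 0.30) and Ina (0.06, adjusted p = 0.78) missed the threshold. Red nucleus neurons had lower Nefl (-0.48) and Nefm (-0.86), and their Nefh (-0.11, adjusted p = 0.37) missed the threshold. Their Ina was higher by 0.44 (adjusted p = 0.00011). Ina in the lumbar, facial and ocular populations differed from the rest by -0.07 to 0.19, below the threshold.

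Prph separated motor from non-motor neurons. In the red nucleus it differed from the mean of the other populations by -4.49 on the log2 scale (SE 0.09, adjusted p = 6.1e-48), and it was higher in facial (1.46), lumbar (1.38) and hypoglossal neurons (1.22). Ocular Prph differed by -0.05 (adjusted p = 0.74). At day 10 the red nucleus held 33.6, 69.8, 86 and 97.9 RPKM in its 4 control mice, and ocular neurons, the lowest motor population, 631 to 733 RPKM. The values did not overlap, and the ocular mean was 9.50-fold that of the red nucleus at day 10, 14.4-fold at day 5 and 15.4-fold at day 2. Summed motor neuron markers were near 0 in the red nucleus, as given above, and the part of neighbouring motor neurons in its remaining Prph was not tested.

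The order of the populations was steady for some genes and not for others. For Nefh in controls, lumbar then ocular neurons came first at every day and did not overlap with each other or with the population next by mean. At day 10 ocular values did overlap facial ones (lowest ocular 607 RPKM, highest facial 615 RPKM). Facial, hypoglossal and red nucleus neurons followed in steps of 1.05- to 1.53-fold, and their neighbouring values overlapped at every day. For Nefl at day 10 the lumbar, ocular and facial means (5497, 5201 and 5005 RPKM) overlapped, and so did red nucleus and hypoglossal (3365 and 3061). At day 2 only the lumbar and ocular values of Nefl overlapped among neighbours. For Ina, neighbouring populations overlapped at every step and day except between red nucleus and hypoglossal neurons at day 10, with means of 557 and 297 RPKM. For Prph, facial, lumbar and hypoglossal neurons overlapped at every day, at means of 1029 to 1410 RPKM.

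Maturation in control mice raised Nefh most. From day 2 to day 10 the 5 genes gave 30 results, of which 17 passed, 14 upward and 3 downward. Those of ocular neurons use the day 10 controls of the comparison that helped choose the genes, and are not independent of that choice. Of all genes tested 12.0% passed in lumbar, 5.36% in facial, 5.11% in hypoglossal, 1.02% in vagus, 8.02% in ocular and 11.1% in red nucleus neurons. The median change over all genes was between -0.10 and 0.06 in each population, and in lumbar neurons quantile normalization shifted it by 0.10 upward.

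Nefh rose in all 6 populations. Lumbar Nefh was 397, 454, 500 and 524 RPKM in the 4 control mice at day 2 and 1560 to 1800 RPKM at day 10, a log2 change of 1.84 (SE 0.11, adjusted p = 1e-11). The groups were far apart, and the day 10 mean was 3.57-fold the day 2 mean. In the red nucleus Nefh went from 83.5, 94.8, 159.1 and 181.8 RPKM to 447, 524, 559 and 597.5 RPKM, a log2 change of 2.10 (SE 0.26). The rise was 1.24 in ocular, 1.22 in facial and 1.11 in hypoglossal neurons. In the vagus it was 1.08 (adjusted p = 0.041), from 19.3, 20.7 and 23.8 RPKM to the day 10 values above. The vagal call was lost when any of 8 mice was left out (240, 244, 247, 253, 254, 26, 30 or 71), with log2 values of 0.94 to 1.16 and adjusted p-values of 0.051 to 0.13; day 2 and day 10 values did not overlap.

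**Figure D2:**
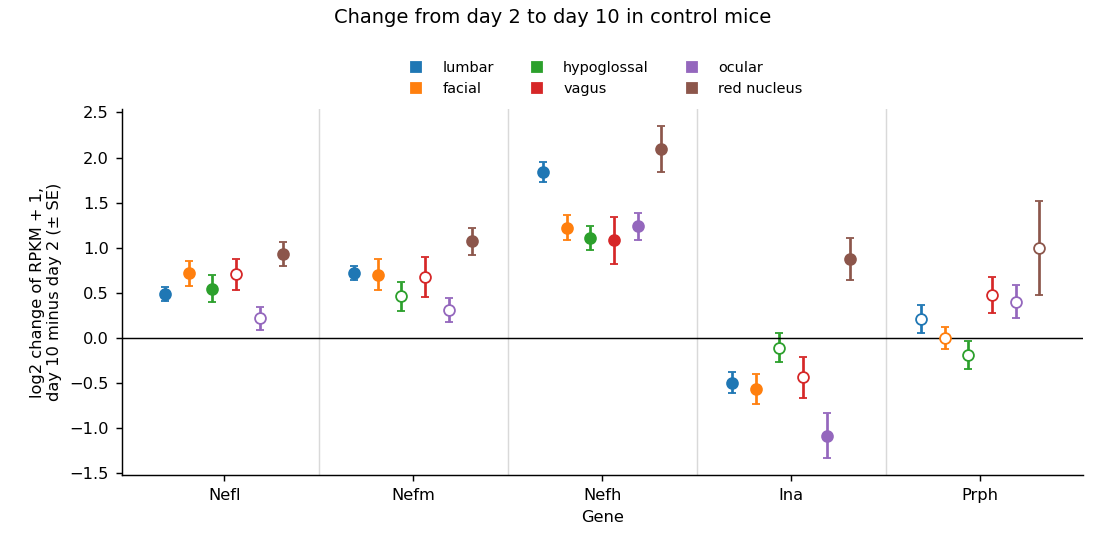
Log2 change of RPKM + 1 from day 2 to day 10 in control mice (points, limma estimates; bars, 1 SE) for each gene and population. Filled circles passed an adjusted p of 0.05 and open ones did not; Nefh is filled in every population, Prph in none, and Ina is above 0 only in the red nucleus.

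The light and medium subunits rose less. Nefl rose in red nucleus (0.93), facial (0.71), hypoglossal (0.54) and lumbar neurons (0.49, adjusted p = 3.4e-05); the vagal change was 0.70 (adjusted p = 0.051) and the ocular one 0.22 (adjusted p = 0.33). Nefm rose in red nucleus (1.07, adjusted p = 4.3e-05), lumbar (0.72, adjusted p = 1.6e-07) and facial neurons (0.70, adjusted p = 0.012). The facial Nefm call rested on control mouse 253: without it the change was 0.51 with an adjusted p of 0.084, and with quantile normalization it was 0.54 (adjusted p = 0.062). The hypoglossal Nefl call (adjusted p = 0.031) was lost without mouse 240, 244, 247, 254 or 26, with values of 0.46 to 0.54 and adjusted p-values of 0.069 to 0.11, with no filter on low values (adjusted p = 0.073) and with quantile normalization (0.49, adjusted p = 0.063). Hypoglossal Nefm changed by 0.46, vagal Nefm by 0.68 and ocular Nefm by 0.31, all short of the threshold.

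Ina went down in motor neurons and up in the red nucleus. It fell in ocular (-1.08, SE 0.25, adjusted p = 0.0070), facial (-0.56, adjusted p = 0.046) and lumbar neurons (-0.50, adjusted p = 0.0029). Ocular Ina was 314, 430, 520 and 617 RPKM at day 2 and 163.2 to 275 RPKM in the 4 mice at day 10, with no overlap. Hypoglossal Ina changed by -0.11 and vagal Ina by -0.44, neither past the threshold. In the red nucleus it rose by 0.88 (SE 0.23, adjusted p = 0.017), from 198.3, 299, 333 and 397 RPKM at day 2 to 394, 582, 590 and 661 RPKM at day 10. The ranges overlap, since the lowest mouse at day 10 lay just under the highest at day 2. The highest value at day 10 was the shallow library of mouse 252; without it the rise was 0.79 (adjusted p = 0.060), and without mouse 26, the lowest at day 2, it was 0.68 (adjusted p = 0.066). With quantile normalization it was 0.67 (adjusted p = 0.081). Facial Ina was close to the threshold. Of the 34 fits that left out a mouse, 16 gave an adjusted p of 0.051 to 0.16 with a change of -0.60 to -0.48. The change was smallest without mouse 252 (-0.48) or 247 (-0.49). Over all 34 fits the facial Ina change was -0.68 to -0.48. Its call was also lost with quantile normalization (-0.59, adjusted p = 0.061) and with no filter (-0.56, adjusted p = 0.058).

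The difference in age change between the red nucleus and the mean of the 5 motor populations was tested after these values had been seen. The motor mean includes the ocular controls of day 10. It was 1.41 (SE 0.21, adjusted p = 1e-05) for Ina, 0.80 (SE 0.20, adjusted p = 0.013) for Nefh and 0.82 (SE 0.20, adjusted p = 0.011) for Prph; Nefl (0.39, adjusted p = 0.082) and Nefm (0.50, adjusted p = 0.088) missed the threshold. Of all genes 2.95% passed in this comparison. The Ina difference passed without any of the 15 control mice in turn (1.25 to 1.51). The Nefh difference was 0.66 without mouse 244 (adjusted p = 0.078), 0.73 without mouse 252 (adjusted p = 0.052) and 0.63 without mouse 28 (adjusted p = 0.084). The Prph difference was 0.75 without mouse 244 (adjusted p = 0.064), 0.67 without mouse 252 (adjusted p = 0.11) and 0.65 without mouse 253 (adjusted p = 0.068).

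Prph passed the age test in 0 of 6 populations by limma. An unadjusted p under 0.05 was seen in 2 of the 6, both upward. Of all genes 2159 of 16703 had one in the vagus, the smallest share, and 3942 of 16134 in the red nucleus, the largest. The Prph change ran from -0.19 in hypoglossal to 1.0 in red nucleus neurons (SE 0.52, adjusted p = 0.25).

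RNA of other cells moved with age too. Of 6 oligodendrocyte markers, among them the myelin protein gene Mbp, 6 rose in lumbar, 5 in ocular, hypoglossal and red nucleus and 4 in facial neurons from day 2 to day 10. Their summed level in lumbar controls went from 17.6 to 45.4 RPKM at day 2 up to 476 to 1005 RPKM at day 10. In the red nucleus it went from 14.7 to 24.7 RPKM up to 293 to 579.5 RPKM, with 1 marker at 0 in every mouse at day 2. The part of these cells in the filament changes of those populations was not tested. In the vagus 0 of 5 tested markers passed, the summed level was 51.8 to 104 RPKM at day 2 and 38.1 to 83.5 RPKM at day 10; the vagal Nefh change was 1.08, a call lost without any of 8 mice, as given above.

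In SMA mice, 8 of 25 age results passed outside ocular neurons. Among all genes 18.4% passed in lumbar, 6.73% in facial, 4.31% in hypoglossal, 3.31% in vagus and 5.06% in red nucleus neurons. Nefh rose in red nucleus (2.04), lumbar (1.27, adjusted p = 1.4e-10), facial (0.97) and hypoglossal neurons (0.55, adjusted p = 0.0047), and its vagal change was 0.73 (adjusted p = 0.052). Ina fell in facial (-0.64) and lumbar neurons (-0.55). Nefl rose in the red nucleus (0.68) and Nefm in lumbar neurons (0.22, adjusted p = 0.020). The facial Ina change was -0.53 without mouse 249 (adjusted p = 0.076), and the lumbar Nefm change was 0.19 without mouse 196 (adjusted p = 0.052) and 0.20 without mouse 258 (adjusted p = 0.051). With quantile normalization lumbar Nefm changed by 0.23 (adjusted p = 0.10) and red nucleus Nefl by 0.42 (adjusted p = 0.12), and with no filter lumbar Nefm changed by 0.22 (adjusted p = 0.063). In ocular neurons, described only, Nefh changed by 0.84 and Ina by -1.03 (6.66% of all genes passed there).

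Ratios of RPKM within a library do not depend on its scale. Nefm and Nefl were close to equal in lumbar, facial, hypoglossal and ocular controls, with Nefm/Nefl means of 0.807 to 1.22. Nefm and Nefl share exon bases, so the split of reads behind their ratio is uncertain, as given above. In the vagus the ratio was 0.370 to 0.427 and in the red nucleus 0.596 to 0.664. Nefh stayed the minor subunit. Its ratio to Nefl in lumbar controls was 0.120 ± 0.011 (SD, n = 4) at day 2, 0.122 ± 0.010 (SD, n = 5) at day 5 and 0.305 ± 0.016 (SD, n = 4) at day 10. In ocular controls the means at the same days were 0.0704, 0.0908 and 0.144, and in the red nucleus 0.0731, 0.0946 and 0.162. In the vagus they were 0.0203, 0.0206 and 0.0276.

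**Figure D3:**
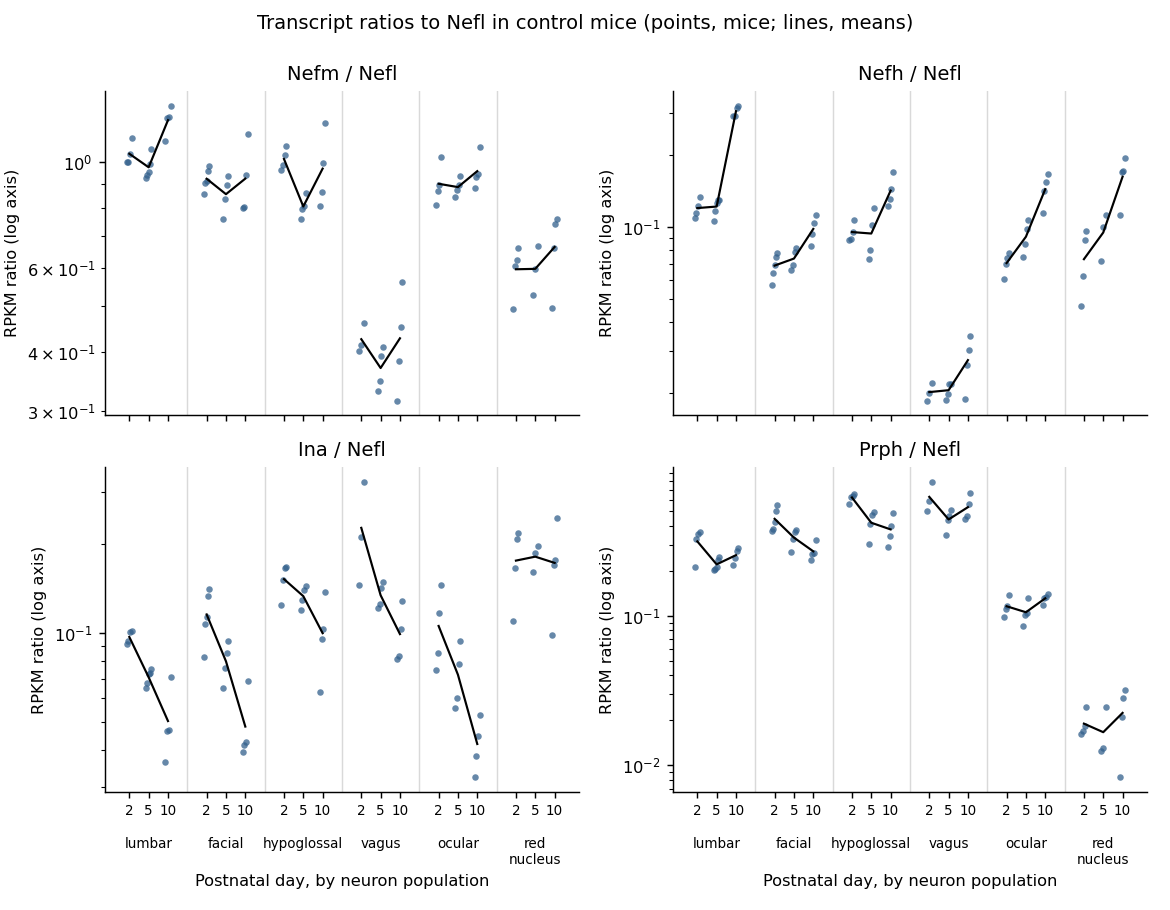
RPKM of Nefm, Nefh, Ina and Prph divided by that of Nefl (log axis) in control mice, by population and postnatal day; points are mice and lines join the means. The Nefh/Nefl mean in lumbar neurons goes from 0.122 at day 5 to 0.305 at day 10, while the Ina/Nefl mean is lower at day 10 than at day 2 in each motor population and stays between 0.173 and 0.181 in the red nucleus.

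The change of each log2 ratio from day 2 to day 10 in controls was tested by an exact two-sided permutation test over mice. The log2 ratios were taken on RPKM + 1, so they depend somewhat on scale where a gene is low. The ratio means above were taken on RPKM alone. As above, the ocular tests are not independent of the choice of genes. Of 24 tests 0 passed after adjustment; 11 reached an unadjusted p under 0.05, and the lowest adjusted p was 0.062. With 4 mice against 4 the smallest p such a test can give is 0.029, so the adjusted value cannot be read as a lack of change. The log2 Nefh/Nefl ratio differed by 1.35 in lumbar, 1.17 in red nucleus, 1.02 in ocular, 0.57 in hypoglossal and 0.51 in facial neurons; in each of these the days did not overlap. In the vagus it differed by 0.38 (exact permutation p = 0.14), with overlap. The log2 Ina/Nefl ratio differed by -1.302 in ocular, -1.28 in facial, -1.14 in vagus and -0.99 in lumbar neurons, again without overlap, and by -0.65 in hypoglossal and -0.05 in red nucleus neurons, both with overlap. For Prph/Nefl the days did not overlap in facial (-0.71) and hypoglossal neurons (-0.73). The log2 Nefm/Nefl ratio differed by -0.08 to 0.23, with overlap in all 6 populations.

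The patterns of the triplet ran together across the 72 control samples. Pearson's r of log2(RPKM + 1) was 0.95 between Nefl and Nefm, 0.94 between Nefm and Nefh and 0.89 between Nefl and Nefh. The part of the exon bases shared by Nefl and Nefm in the first value was not tested. Ina correlated with the triplet at 0.26 to 0.39 and with Prph at -0.24, and Prph with the triplet at 0.15 to 0.37. These samples share mice, populations and days, so the values describe likeness only. Among 6787 genes with a mean of at least 10 RPKM, the 3 most like Nefh were Syt2 (0.96), Kcna1 (0.95) and Vamp1 (0.95). Those most like Nefm were Nefl, Cplx1 (0.94) and Hspa12a (0.94), and those most like Nefl were Nefm, Cabp7 (0.91) and Nefh. For Prph they were Ecel1 (0.94), Lgals1 (0.94) and Hspb8 (0.91), and for Ina, at lower values, Cs (0.71), Rasgrp2 (0.69) and Spsb4 (0.68).

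Genes that modify and move filaments were set beside the subunits with counts from the same age comparison in controls. Of 14 measured genes for kinases and phosphorylation factors of neurofilament tails, 2 passed upward and 0 downward in lumbar, facial and ocular neurons, 3 upward and 1 downward in the red nucleus, 1 and 1 in hypoglossal neurons, and 0 in the vagus. The counts of this list and those below stand beside 12.0% of all genes passing in lumbar, 5.36% in facial, 8.02% in ocular, 11.1% in red nucleus, 5.11% in hypoglossal and 1.02% in vagus neurons, in both directions together. The median change of this list was -0.10 in lumbar neurons, the same as over all genes there (-0.10). Mapk10, a stress-activated kinase, rose in lumbar (0.71), facial (0.77), hypoglossal (0.80) and red nucleus neurons (0.72), and Gsk3b, a kinase of neurofilament tails, fell in hypoglossal (-0.76) and red nucleus neurons (-0.93). Of 9 genes for transport motors, 1 passed upward in every population but the vagus, where 0 did, and 1 passed downward, Myo5a in lumbar neurons (-0.54). Kif5a, the kinesin heavy chain that carries neurofilaments, rose in the red nucleus (0.67, adjusted p = 0.031).

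Of 8 listed genes for filament turnover and assembly 6 or 7 were tested; 3 rose and 1 fell in lumbar, 2 and 1 in ocular, and 1 and 1 in red nucleus neurons. Hspb8, a small heat shock protein, rose in all 6 populations, by 1.18 in facial to 2.83 in ocular neurons. Hspb1, of the same family, rose in lumbar (2.15), ocular (1.73) and hypoglossal neurons (0.75), and fell in the red nucleus (-1.52, adjusted p = 0.017). Trim2, a ubiquitin ligase that targets Nefl, fell in lumbar (-0.51) and ocular neurons (-0.98). Of 7 regulators of neurofilament messenger RNA, 0 passed upward in any population; Matr3, a nuclear RNA-binding protein, fell in lumbar (-0.55), ocular (-0.64) and red nucleus neurons (-0.77).

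Several transcripts of the growing axon fell as Nefh rose. Of 14 measured microtubule genes, 5 fell and 3 rose in lumbar, 6 fell and 2 rose in ocular and 5 fell and 2 rose in red nucleus neurons. Tubb2b, a tubulin of immature neurons, fell in the 5 populations other than the vagus (-3.21 to -1.46). Tuba4a, an alpha tubulin, rose in red nucleus (1.39), ocular (1.25), hypoglossal (0.78) and lumbar neurons (0.58). Of the 7 listed axon growth genes 4 fell in lumbar neurons and 0 rose in any population. Gap43, a protein of growth cones, fell in those 5 populations (-2.25 to -1.38), and Marcks did too (-3.12 to -1.05). Vim, the intermediate filament of immature and non-neuronal cells, fell in all 6 populations (-4.33 to -2.74).

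SMA and control mice were then compared at each day. Of 85 member results outside ocular neurons at day 10, 0 passed by limma, 16 had an unadjusted p under 0.05 (7 higher and 9 lower in SMA), and an exact permutation test over mice gave 12. The share of all genes that passed was small as well. It was 0.0122%, 0.0488% and 0.775% in lumbar neurons at days 2, 5 and 10. In facial neurons it was 0.0232%, 0.0695% and 0.666%, and in hypoglossal neurons 0.0364%, 0.00607% and 0.0728%. In the vagus it was 0.00599% at each day, in the red nucleus 0.0434%, 0.0062% and 0.0124%, and in ocular neurons 0.132% and 0.0252% at days 2 and 5. Beside the unadjusted count of the members, the share of all genes with an unadjusted p under 0.05 differed between comparisons. It was smallest in the red nucleus at day 5 (498 of 16134 genes) and largest in ocular neurons at day 2 (1787 of 15890).

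Lumbar motor neurons at day 10 came nearest to the threshold. Nefm was 5005, 5170, 5584, 5664 and 5863 RPKM in the 5 SMA mice and 6278, 6365, 7089 and 7120 RPKM in the 4 controls. The groups did not overlap, and the SMA mean differed from the control mean by -18.7% (log2 -0.30, SE 0.08, adjusted p = 0.053). Nefh was 1083, 1195, 1221, 1268 and 1460 RPKM in SMA and 1560, 1657, 1678 and 1800 RPKM in control mice, also without overlap (log2 -0.43, SE 0.11, adjusted p = 0.054). Of all genes tested in lumbar neurons 1.47% were likewise lower in SMA at day 10 with no overlap. Nefl overlapped (log2 -0.17, adjusted p = 0.39), as did Prph (-0.16). Ina differed by 0.01. The adjusted p fell under 0.05 for Nefm without mouse 196, 211, 29 or 76 (0.026 to 0.048). For Nefh it did so without mouse 211, 244, 249, 61, 75 or 77 (0.032 to 0.049). Quantile normalization also brought Nefh under it (log2 -0.51, adjusted p = 0.038). Of these mice only 196 and 249 were of day 10. The others enter only through the fit shared by all groups, and without them the log2 differences stayed at -0.30 and -0.43. Other alternatives went the opposite way, with adjusted p-values up to 0.19 for Nefm and 0.17 for Nefh. Chat was 22.4 to 33.9 RPKM in these SMA mice and 37.9 to 44.1 RPKM in the controls, with no overlap (log2 -0.44, adjusted p = 0.40). The summed motor neuron markers were 167.3 to 204.6 and 179.7 to 227.1 RPKM, and overlapped. Summed vessel markers were 15.3 to 32.9 RPKM in SMA and 6.74 to 16.2 RPKM in control mice, with 0 of 5 at 0 in every mouse. The part of either in the lumbar Nefm and Nefh values was not tested.

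**Figure D4:**
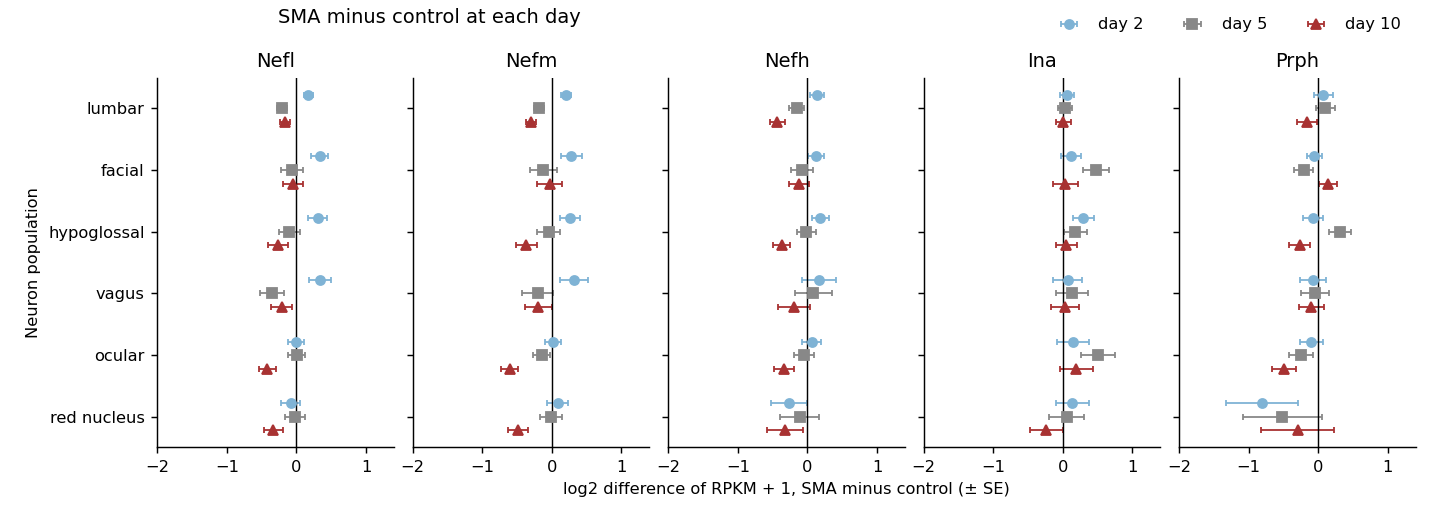
Log2 difference of RPKM + 1, SMA minus control, for each gene and population at days 2 (circles), 5 (squares) and 10 (triangles); points are limma estimates and bars 1 SE. At day 10 the lowest point is ocular Nefm (-0.61), a value used to choose the genes, facial Nefl and Nefm lie near 0 (-0.05 and -0.03), and no point outside ocular neurons at day 10 passed the adjusted threshold.

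In 3 further groups values did not overlap between genotypes. Lumbar Nefm at day 2 was 3806 to 4272 RPKM in 4 controls and 4420 to 4933 RPKM in 7 SMA mice, higher in SMA (log2 0.21, adjusted p = 0.65). Lumbar Nefl at day 5 was 4951 to 5909 RPKM in controls and 4473 to 4914 RPKM in SMA mice (log2 -0.21, adjusted p = 0.35). Earlier-deposited reads were merged into the lumbar controls of day 5, so genotype and read source cannot be told apart there. Red nucleus Nefm at day 10 was 1980, 2037, 2293 and 2440 RPKM in controls and 1463, 1568, 1591 and 1601 RPKM in SMA mice (log2 -0.49, adjusted p = 0.49). The share of all genes tested with no overlap in the same direction was 0.354% in lumbar neurons at day 2 (higher), 0.47% at day 5 (lower) and 0.998% in the red nucleus at day 10 (lower). In the red nucleus quantile normalization shifted the median of all genes by -0.14 at day 10 and by -0.11 at day 2.

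At day 10 the triplet lay on the same side in the 5 populations other than ocular. The log2 difference was -0.33 to -0.05 for Nefl, -0.49 to -0.03 for Nefm and -0.43 to -0.13 for Nefh, where 3.35% of all genes tested in these 5 populations were lower in SMA in 5 of 5. Facial neurons stood at the small end (-0.05, -0.03 and -0.13), and with quantile normalization their Nefl (0.03) and Nefm (0.01) changed sign. Prph was lower in 4 of these 5 and Ina in 1. At day 2 Nefm was higher in SMA in 6 of 6 populations (0.02 to 0.32), though ocular Nefm was -0.07 with quantile normalization, and Nefl was higher in 4 of 6. Ina was higher in SMA in 6 of 6 populations at both day 2 and day 5. Of all genes tested in the 6 populations, 5.72% were higher in 6 of 6 at day 2 and 4.71% at day 5. The same mice gave several populations, so these counts are not independent.

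Pooling the 5 populations other than ocular, with the mouse as a random block, gave 2 of 15 member results past the threshold. At day 10 Nefm was lower in SMA (log2 -0.28, SE 0.07, adjusted p = 0.029), and at day 2 Nefl was higher by 0.21 (SE 0.06, adjusted p = 0.026). The share of all genes that passed was 1.56% at day 2, 0.0551% at day 5 and 1.03% at day 10. At day 10 Nefl (-0.21, adjusted p = 0.058) and Nefh (-0.29, adjusted p = 0.056) lay just outside the threshold, and at day 2 Nefm (0.23, adjusted p = 0.058) did. Without mouse 252, whose red nucleus library was the shallowest, Nefl (-0.24, adjusted p = 0.036) and Nefh (-0.35, adjusted p = 0.019) also passed at day 10. Nefl passed without mouse 77 too, and Nefh without mouse 14, 18, 209 or 211. Leaving out other mice weakened them, to -0.16 for Nefl and -0.23 for Nefh. Their adjusted p-values reached 0.34 and 0.32 over the alternatives. At day 5 the triplet differed by -0.15 to -0.06, with adjusted p-values of 0.524 to 0.935. Prph differed by -0.19 to -0.08 and Ina by -0.02 to 0.17, none past the threshold.

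The day 10 call for Nefm was lost without mouse 254 (-0.21, adjusted p = 0.22), 253 (-0.24, adjusted p = 0.11), 258 (-0.26, adjusted p = 0.075), 249 (-0.27, adjusted p = 0.066) or 196 (-0.28, adjusted p = 0.055). With quantile normalization the value was -0.28 and the adjusted p 0.072. The day 2 call for Nefl rested on few controls. In the labels, the LCM numbers of control mice 240 and 244 are higher than those of all SMA mice of that day. Without both mice the Nefl difference was 0.11 (adjusted p = 0.69). Without mouse 244 alone it was 0.16 (adjusted p = 0.23), without mouse 240 alone 0.20 (adjusted p = 0.10), and without SMA mouse 206 it was 0.21 (adjusted p = 0.068). Control mouse 244 had the lowest Nefl of the controls at day 2 in facial, vagus, hypoglossal, lumbar and ocular neurons. Quantile normalization left 0.21 with an adjusted p of 0.12.

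In the same pooled comparison Gfap, the intermediate filament of astrocytes, was higher in SMA by 1.34 at day 5 (adjusted p = 0.0038) and by 1.09 at day 10 (adjusted p = 0.0065), 1 of 6 astrocyte markers to pass at either day. The summed level of the 6 markers at day 10 was 51.3 to 93.2 RPKM in lumbar SMA and 53.4 to 92.1 RPKM in lumbar control neurons, and 46.8 to 83.3 against 30.6 to 43.2 RPKM in facial neurons. Its part in the lower Nefm was not tested. Of the related lists, 0 of 9 transport genes, 0 of 14 microtubule genes and 0 of 14 kinase genes passed at day 10; Marcks, of the axon growth list, was higher in SMA by 0.53 (adjusted p = 2.2e-05). At day 2, Gsk3b (-0.48) and Sod1 (-0.47) were lower and Tubb2b (0.62), Tuba1a (0.33), Basp1 (0.32) and Gsk3a (0.35) higher in SMA, past the threshold. Of all genes 1.56% passed at that day. The pooled Nefl call of day 2 rested on few controls, as given above. Whether the calls for these other genes do so too was not tested.

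Whether the genotype difference itself changed from day 2 to day 10 was tested in each population. Of 25 member results outside ocular neurons 0 passed by limma, with 8 at an unadjusted p under 0.05, all of them negative. Among all genes tested 0.0% passed in lumbar, hypoglossal, vagus and red nucleus neurons and 0.122% in facial neurons. The share of all genes with an unadjusted p under 0.05 was smallest in the vagus (970 of 16703). It was largest in lumbar neurons (1378 of 16382), in both directions together. The change was negative for Nefl, Nefm and Nefh in each of the 5 populations: -0.25 to -0.58 for Nefl, -0.31 to -0.63 for Nefm and -0.06 to -0.57 for Nefh, while 5.25% of all genes tested were negative in 5 of 5. With quantile normalization red nucleus Nefh was 0.01. Several populations came from the same mice, so the 5 of 5 is not independent. The day 2 difference enters this change, and the pooled Nefl call of that day rested on few controls, as given above. Leaving out those controls together was not tested for this change. Lumbar Nefm had the lowest adjusted p, 0.090, for a change of -0.51 (SE 0.10). Hypoglossal neurons had the most negative values for Nefl (-0.58) and Nefm (-0.63), with adjusted p-values of 0.51 and 0.49.

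The comparison of SMA and control mice in ocular motor neurons at day 10 was used to choose the genes, and it is described without a test. Its control values did enter the population and age tests above. Nefm was 2694, 3123, 3366, 3548 and 3673 RPKM in SMA mice and 4436, 4937, 4937 and 5619 RPKM in controls. Nefl was 3441, 3607, 3805, 4288 and 4388 RPKM against 5031, 5235, 5238 and 5301 RPKM. Neither overlapped, as was so for 1.1% of all genes tested, lower in SMA. Nefh overlapped (446 to 656 against 607 to 871 RPKM), as did Prph (340 to 660 against 631 to 733 RPKM) and Ina. Summed motor neuron markers were 112.03 to 272 RPKM in these SMA mice and 292 to 322 RPKM in the controls, and red nucleus markers 9.07 to 176.9 and 4.74 to 16.9 RPKM; their part in the filament values was not tested. The log2 differences were -0.61, -0.42, -0.34, -0.50 and 0.19 for Nefm, Nefl, Nefh, Prph and Ina. The share of all genes that passed was 0.359%, and 0.126% for the change of the difference from day 2 to day 10. Using only libraries that held both the oculomotor and the trochlear nucleus, the Nefm difference was -0.68. At days 2 and 5 the ocular differences of the triplet lay between -0.15 and 0.06, below the threshold.

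Subunit ratios were then compared between genotypes, with log2 ratios again taken on RPKM + 1 and ratio means on RPKM alone. Over the 68 ratio tests outside ocular neurons at day 10, 0 passed after adjustment within a day (lowest adjusted p = 0.19), and 6 had an unadjusted exact permutation p under 0.05. Outside facial neurons at day 2, the smallest p possible, if reached by a single test, stays over the threshold after adjustment. Stability therefore cannot be read from this count. Facial neurons at day 2 could give an exact permutation p of 0.0013, and their lowest was 0.023 (Prph/Nefl). The log2 differences ran from -0.73 (red nucleus Prph/Nefl at day 2) to 0.54 (facial Ina/Nefl at day 5), and ocular Ina/Nefl at day 5 differed by 0.50. The -0.73 (exact permutation p = 0.49) leaned on SMA mouse 211, with Prph at 2.85 RPKM against 28.1 to 34.8 RPKM in the other SMA mice. Lumbar Nefh/Nefl at day 10 was 0.256 ± 0.039 (SD, n = 5) in SMA and 0.305 ± 0.016 (SD, n = 4) in control mice, a log2 difference of -0.26 (exact permutation p = 0.071). Lumbar Nefm/Nefl was 1.12 and 1.22 (log2 -0.13, exact permutation p = 0.063). Lumbar Ina/Nefl at day 5 was higher in SMA without overlap (0.0835 against 0.0707; exact permutation p = 0.0079, the smallest the test can give, adjusted p = 0.19). Vagal Nefh/Nefl (0.0282 against 0.0206) and facial Ina/Nefl (0.119 against 0.0801) at day 5 were also higher without overlap. At day 5 lumbar Prph/Nefl was higher in SMA (0.278 against 0.221, exact permutation p = 0.048, adjusted p = 0.23), and hypoglossal Prph/Nefl was 0.555 against 0.420 (exact permutation p = 0.057). For the lumbar ratios at day 5, genotype cannot be told apart from the earlier reads merged into those controls. Prph/Nefl at day 2 was lower in SMA in facial (0.340 against 0.446), hypoglossal (0.484 against 0.620) and vagus neurons (0.467 against 0.626), each with an unadjusted p under 0.05 and an adjusted p of 0.38. In ocular neurons at day 10, described only, Nefm/Nefl was 0.840 in SMA and 0.957 in control mice.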

How the data were processed

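Neurons were laser-captured, about 150 to a tube, and polyA RNA was turned into Smart-seq2 libraries, per the labels' protocols. The authors deposited a table of RPKM with 39410 rows and 168 libraries. The submitters' processing notes name STAR 2.4.1c and the builds mm10 and hg19; the counter, annotation and use of strand are not given in the sources used here. Per the labels, earlier-deposited reads were merged into the 5 lumbar control libraries of day 5. The table has no counts; depth was recovered from steps of 1 read in 17340 single-transcript genes (76.6% or more of low values within 0.02 reads of a whole number).

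Where a mouse had several libraries of a population, their RPKM were averaged (8 of 160 samples), and log2(RPKM + 1) was tested with limma 3.58.1 (R 4.3.3; lmFit, eBayes with trend), fitted per population on all 6 groups. Genes needed an RPKM of at least 1 in as many samples as the smallest group held. Fold changes on this scale understate changes of low genes. Tests were two-sided, adjusted by Benjamini-Hochberg over all genes, threshold 0.05. The code was tested on simulated data. Members and gene lists were chosen with earlier results of these data known. Named genes were the members, Smn1, the 3 genes most correlated with each member, and list genes past the threshold, up to 4 a list, with fixed markers; 1 listed marker is not reported here. Gene positions are from GENCODE M21.

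One mouse gave several populations, which pairs these by animal: deviations from group means correlated at a median of 0.037 (-0.060 to 0.191, 150 pairs), against -0.009 for other mice. The comparison of age changes between the red nucleus and motor populations was added after the data were seen.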

Additional observations from a re-analysis of the deposited data

Results flagged for a closer look

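Of 160 combinations of a gene and a group of 4 to 7 mice, 9 (5.63%) held a mouse that stood apart from its group, about the 1 in 20 that chance flags. Control mouse 253 at day 10 had the lowest lumbar Nefl (4849 RPKM, others 5666 to 5765) and the highest facial Nefm (6787 RPKM, others 3821 to 4058). Mouse 76 had the highest lumbar Nefm of SMA mice at day 5 (5456 RPKM, others 4282 to 4478), and mouse 18 the highest vagal Nefh of SMA mice at day 2 (40.2 RPKM, others 17.3 to 25.5). Lumbar Ina was lowest in control mouse 29 at day 5 (335 RPKM, others 383 to 395). Prph stood apart in facial SMA mouse 16 at day 2 (1556 RPKM, highest, others 1198 to 1285), hypoglossal SMA mouse 31 at day 5 (918 RPKM, lowest, others 1377 to 1463), red nucleus control mouse 14 at day 2 (46.7 RPKM, highest, others 28.0 to 30.5) and vagal SMA mouse 258 at day 10 (1003 RPKM, highest, others 777 to 835).

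The change from day 2 to day 10 in control mice differed between the red nucleus and the mean of the motor populations for Nefh (0.80), Ina (1.41) and Prph (0.82), on the log2 scale, by limma in a comparison added after the data were seen.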

How the results depend on the processing

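Of 43 member results followed through the alternatives, 24 kept their direction and their side of the threshold in every alternative run (pseudocount 0.1, no filter, quantile normalization, each library as its own sample, only the 2 groups compared, and each mouse left out, as each applied), and 2 changed sign: pooled Nefh at day 2 (0.068) was -0.030 without control mice 240 and 244 and -0.011 to 0.115 with a mouse left out (negative without mouse 244), and pooled Nefh at day 5 (-0.056) was -0.128 to 0.014 with a mouse left out (positive without mouse 75). The cause was not tested. Outside these 43, differences that changed sign with quantile normalization included Nefl and Nefm in facial neurons at day 10 (0.03 and 0.01), Nefm in ocular neurons at day 2 (-0.07) and the change of the Nefh difference in the red nucleus (0.01). SMA against control gave 0 calls, 1 with quantile normalization, 12 by the unadjusted exact permutation test, and 0 to 2 when a mouse was left out. The pooled comparison gave 2 calls, 0 with quantile normalization, 1 without control mice 240 and 244 and 1 to 5 when a mouse was left out. With no replicate block it gave 5, adding Nefm at day 2 and Nefl and Nefh at day 10. With mice paired as a replicate block the population comparison gave 22 calls, as without it. Quantile normalization ended the age calls for facial Nefm and Ina, hypoglossal Nefl and red nucleus Ina in controls, and for lumbar Nefm and red nucleus Nefl in SMA mice. Age changes in control mice gave 17 calls, 13 to 17 over all alternatives, and in SMA mice 8, 6 to 10. The red nucleus age comparison gave 3 calls and 1 to 3 when a control mouse was left out. Ratio tests by age gave 0 calls, and 5 with each library as its own sample, a setting with more samples. The number of mice, 3 to 7 a group, and the depth of 0.341 M reads in the shallowest library limit what could be called.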
